A study of Mus musculus with 383 samples.

Results

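The genes described here encode the proteins of the cytosolic ribosome, read out in single sorted nuclei of the mouse brainstem. They were taken by name from the rows of the count table, as symbols beginning with Rpl or Rps followed by a number, together with Rplp0, Rplp1, Rplp2 and Rpsa, and without rows marked as pseudogenes. The rule found 83 genes among 29779 rows. Of these, 51 belong to the large subunit, including the 3 proteins of its stalk, and 32 to the small subunit. Among the 83 are 6 paralogs of a standard ribosomal protein gene, namely Rpl3l, Rpl7l1, Rpl10l, Rpl22l1, Rpl39l and Rps27l. The labels give the tissue as the dorsal motor nucleus of the vagus, the source of parasympathetic motor fibres to the viscera, and the molecule as nuclear RNA. All nuclei came from male Chat-IRES-Cre mice on a C57BL/6 background, in which the choline acetyltransferase locus drives Cre. The mice received 100 nL of the Cre-dependent virus AAV9-DIO-H2b-mCherry at 10 weeks of age and were killed 16 days later. The series text gives an age of 12 weeks. There was no second genotype, treatment or time.

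Dissected tissue was pooled, and singlets positive for a DNA dye and for mCherry were sorted individually into 96-well plates. The virus marks any cell that expresses Cre, so the gate selects cholinergic cells and no one subtype. Full-length cDNA was made by Smart-seq2 with 22 amplification cycles. The labels name no animal, so the 383 nuclei count as 1 sample. No test between nuclei was possible, and every correlation below is a description over nuclei that share libraries, depth and a denominator. The protocol also speaks of sections near the SCN, an abbreviation that it does not tie to the vagal nucleus.

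Nuclei with at least 1000 genes with a read were kept, which left 316 of 383. The nucleus nearest below this limit had 988 genes and the nearest above it 1040. Kept nuclei held from 1590 to 4699420 reads, with a median of 1440080, and a median of 11234.5 genes. Mitochondrial genes took a median of 0.0868% of reads, and no kept nucleus passed 10%. Cholinergic markers were read in a mean of 71.0% to 89.7% of nuclei in each of 12 clusters, more than the markers of any other specific cell type listed. No pair of libraries was identical. Blocks of 96 nucleus numbers, taken from the labels, are given apart where they differ. Nothing in the labels says that a block is a plate. Nuclei 91, 270 and 304 stood apart by their ribosomal protein share, and results that rest on them are also given without them.

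Each cytosolic ribosome joins a large subunit, where peptide bonds form, to a small subunit, which reads the messenger. The ribosomal proteins are needed in near-equal numbers, one of each per ribosome with the stalk proteins as the known exception, and their messengers carry a terminal oligopyrimidine (TOP) tract, a C at the cap followed by a run of pyrimidines, through which growth signalling controls their translation. In whole cells these short, stable, mostly cytoplasmic messengers are among the most abundant. In a nucleus only transcripts not yet exported, and cytoplasm that stays attached, can be counted.

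The TOP tract can be read at annotated start sites. RefSeq start sites on build GRCm38.p6 were matched by symbol for 63 of the 83 genes, at 75 sites. A run was counted on the gene's own strand where the annotated first base was a C and at least 4 further bases, each C or T, followed it. Such a run of 5 or more bases opened 13 of the 75 sites (17.3%), against 2.47% of 32776 start sites of all other genes. The annotated first base was a C at 29.3% of the ribosomal protein sites and at 16.3% of the others. Annotated starts can lie a few bases away from the true cap, and a site without the run says only that the run does not begin at that base. The windows below run 15 bases before and 15 bases from the annotated start, 5′ to 3′, and capitals mark the pyrimidine run from the start. The first 6 show the tract in genes of both subunits and the stalk, from the longest run down. The last 3 show the start of Rpl4, the gene with most reads, and of the paralogs Rps27l and Rpl22l1, where the annotated base opens no run.
Rpl15, chr14:18270972-18271001, minus strand: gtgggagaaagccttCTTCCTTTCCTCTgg
Rpl35, chr2:39005117-39005146, minus strand: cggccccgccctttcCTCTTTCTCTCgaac
Rps6, chr4:86857353-86857382, minus strand: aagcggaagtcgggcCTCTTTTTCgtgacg
Rps27, chr3:90213634-90213663, minus strand: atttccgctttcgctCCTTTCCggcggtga
Rpl14, chr9:120571502-120571531, plus strand: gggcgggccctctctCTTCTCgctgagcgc
Rplp2, chr7:141447636-141447665, plus strand: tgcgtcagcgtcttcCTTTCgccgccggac
Rpl4, chr9:64173372-64173401, plus strand: ttccttttcctgtgggagcagccgggtaga
Rps27l, chr9:66946071-66946100, plus strand: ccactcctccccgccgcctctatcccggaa
Rpl22l1, chr3:28805493-28805522, plus strand: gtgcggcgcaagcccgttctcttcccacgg

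Ribosomal protein genes took a small part of the reads of these nuclei. Together they held 736828 of 474276030 reads, a pooled share of 0.155% (exact 95% Poisson interval 0.155% to 0.156%). These intervals reflect counting error alone, since PCR copies of a molecule cannot be told from separate molecules here. Per nucleus the share was 0.0323% at the lowest, 0.146% at the median and 2.74% at the highest, with quartiles of 0.102% and 0.215%. Of the 316 nuclei, 147 lay between 0.1% and 0.2%, while 6 nuclei passed 0.5% and 3 passed 1%. The coefficient of variation was 1.08, and 0.530 without those 3. Counting alone would give 0.0219 at the median number of ribosomal protein reads, 2093. That value takes each read as a separate molecule. Counting error is larger in nuclei with fewer such reads, of which the lowest had 1.

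The share was not even along the nucleus numbers. Its median was 0.142% in block 1 (80 nuclei), 0.199% in block 2 (80 nuclei), 0.112% in block 3 (74 nuclei) and 0.133% in block 4 (82 nuclei). Block 2 was the highest of the 4, and the ranges of all 4 blocks overlapped. Whether the blocks differ in handling was not tested.

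**Figure D1:**
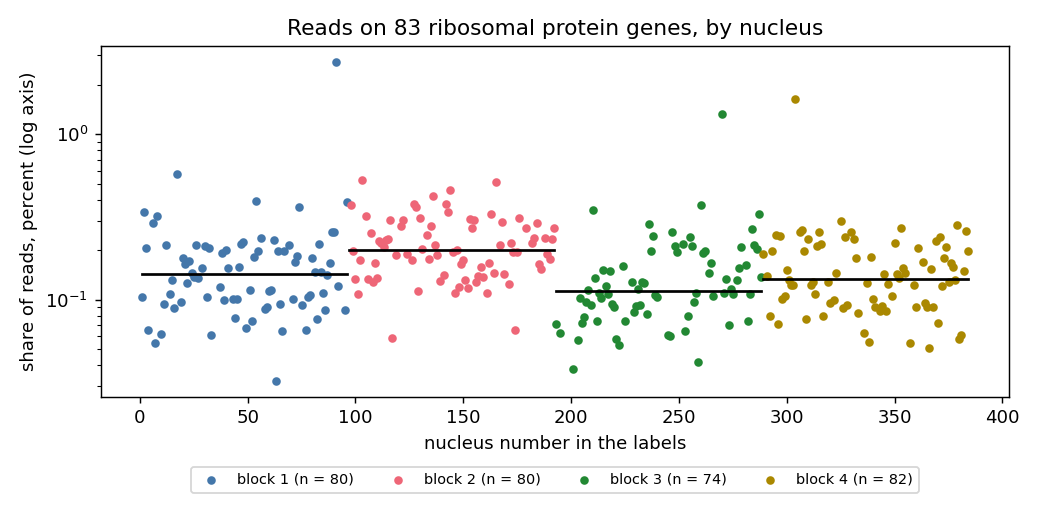
Share of all reads on the 83 ribosomal protein genes (percent, log axis) against nucleus number, 1 point per kept nucleus, coloured by block of 96 numbers, with a black line at each block's median. Block medians lie between 0.112% and 0.199%, and 3 points lie above 1%.

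The 3 nuclei above 1% differed in make-up. Nucleus 91 held 202379 reads and had the highest share, 2.74%, spread over 75 ribosomal protein genes, and its leading gene, Rps3, took only 4.57% of them. Nucleus 304 held 9940 reads, and Rplp1 alone made up 90.7% of its 162 ribosomal protein reads. Nucleus 270 held 65485 reads and a share of 1.32%, drawn from 14 genes and led by Rps24 at 22.8%. So a high share came from most of the gene set in the first of these nuclei and from few genes in nuclei 304 and 270. All 3 had fewer reads than the lower quartile of kept nuclei, 1117650. The lowest share belonged to nucleus 63, with 9299 reads and a single ribosomal protein gene, Rps26, on 3 reads. Among deep nuclei the lowest was nucleus 201, at 0.0380% of 1869126 reads with 39 genes found.

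Nearly every ribosomal protein gene was found in most nuclei. A read was present in over 50% of kept nuclei for 78 of 83 genes (94.0%), against 34.9% of the 29696 other rows of the table. The median gene was found in 82.3% of nuclei and none in every nucleus. A median nucleus had 2093 ribosomal protein reads on 69 of the 83 genes, with a range of 1 to 81 genes. At these depths a gene with no read in a nucleus was not detected there, which does not show that it is absent. The 5 genes found in under 50% of nuclei were the paralogs Rpl7l1 (39.6%), Rpl3l (11.7%), Rpl39l (2.53%) and Rpl10l (0.316%) and the standard gene Rpl24 (18.0%).

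By role, the 43 standard large-subunit genes outside the stalk made up 57.5% of the ribosomal protein reads, and 42 of them were found in over 50% of nuclei. The 31 standard small-subunit genes made up 35.4%, and all 31 were found in over 50%. The 3 stalk genes gave 4.23% and the 6 paralogs 2.89%. In reads per 1000000 over all kept nuclei (RPM, not corrected for length), Rpl4 had the most with 79.4 (exact Poisson 95% interval 78.6 to 80.3), followed by Rpl3 with 67.4 and Rpl6 with 44.0. Rpl4 and Rpl3 are core proteins of the large subunit, beside the exit tunnel and the peptidyl transferase centre. Rpl4 had the most ribosomal protein reads in 85 nuclei (26.9%) and Rpl3 in 50 (15.8%), and 42 different genes led in at least 1 nucleus. The leading gene held a median of 7.65% of a nucleus's ribosomal protein reads. The 10 genes with most reads held 28.8% of them, so reads were spread over many genes. Even Rpl4 ranked only 2769 among all rows by reads.

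Levels were compared between genes per kb of exon, with exon lengths of GENCODE M21 on GRCm38. These lengths join the exons of all annotated transcripts of a gene, so they can exceed the messenger. For Rpl22l1 they cover its whole span of 1989 bases. The order of genes per kb depends on this choice. On that scale the highest was Rplp1 (chr9:61913284-61914542), a stalk protein that helps recruit elongation factors, at 47.9 RPM per kb. Rpl4 (chr9:64173375-64178666) followed at 39.6, Rps15, a protein of the small-subunit head, at 37.1, Rpl19, which takes part in a bridge between subunits, at 32.2, and Rpl8, next to the peptidyl transferase centre, at 22.5. The lowest of all were Rpl7l1 at 1.82, Rpl3l at 0.787, Rpl39l at 0.586, Rpl24 at 0.377 and Rpl10l at 0.00206. The median over the 83 genes was 8.49. Among the stalk genes, Rplp0, the anchor of the stalk, stood at 12.0 and Rplp2, the partner of Rplp1, at 10.6. Rpsa, a small-subunit protein also known as a laminin receptor, stood at 8.49 and Rps27a, made as a fusion with ubiquitin, at 10.8.

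**Figure D2:**
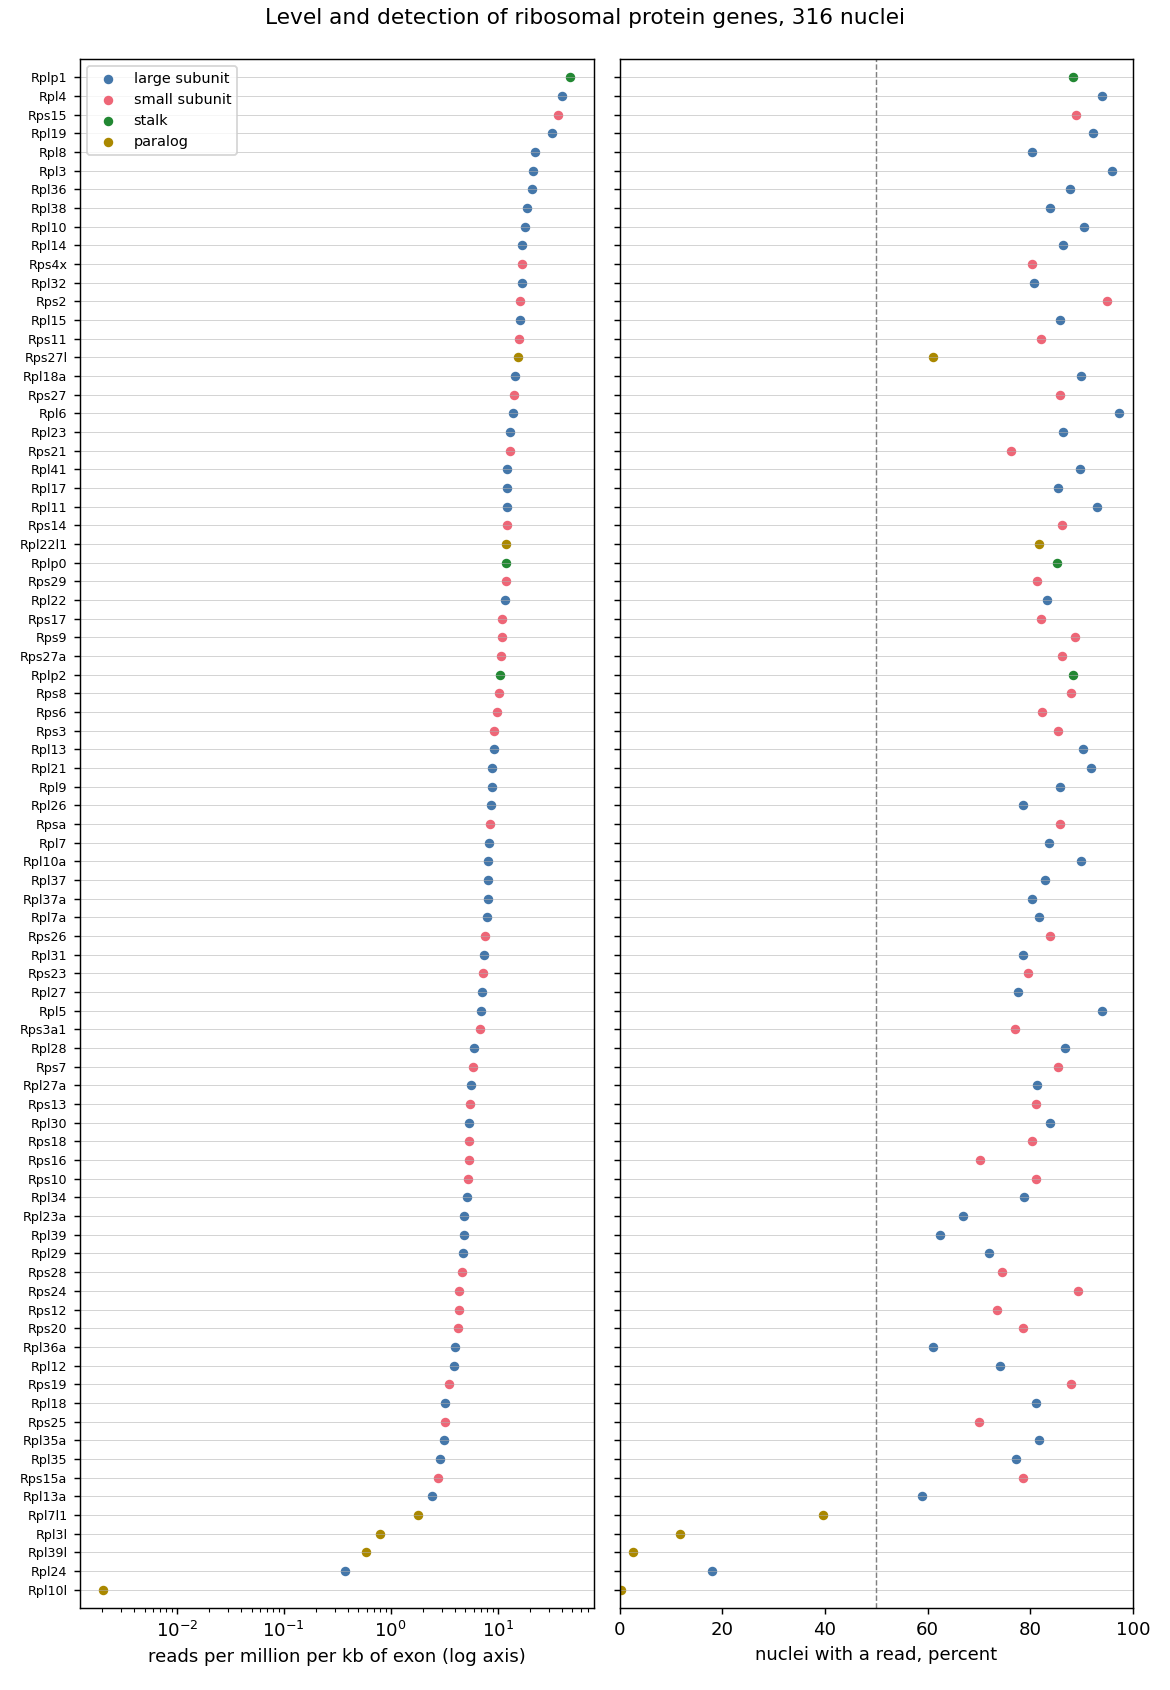
Ribosomal protein genes (82 of the 83) by RPM per kb of exon (left, log axis, pooled over 316 nuclei) and by percent of nuclei with a read (right), coloured by role. Most genes lie near the median of 8.49, and the 4 rarest paralogs and Rpl24 lie to the left of and below the rest.

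Values by nucleus show how sparse single genes were beside the sum. Rpl4 ranged from 0 to 637 RPM with a median of 78.3 and was found in 297 nuclei (94.0%, exact 95% binomial interval 90.8% to 96.3%). Binomial intervals here take nuclei as independent draws, so they do not cover any spread between animals. Rpl3 ranged from 0 to 324 RPM with a median of 66.7. Rplp1 ranged from 0 to 14789 RPM with a median of 20.7, and its highest value was that of nucleus 304. For Rps15, Rpl8, Rps3, Rps27, Rpl7, Rps12 and Rpl39 the highest value was that of nucleus 91. Rps3, beside the channel where the messenger enters, had a median of 34.3 RPM and a highest value of 1255. Rps27 had a median of 10.7 and a highest value of 667. Both were read in most nuclei, Rps3 in 85.4% and Rps27 in 85.8%.

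Rpl24, a large-subunit protein that reaches across to the small subunit, was the only standard gene rarely found. It had a read in 57 of 316 nuclei (18.0%, exact 95% binomial interval 14.0% to 22.7%), a median of 0 and a highest value of 27.3 RPM. In GENCODE M21 the Rpl24 locus (chr16:55966275-55971435) overlaps a gene model on the same strand, Gm28037, which holds 81.8% of the 50-base windows of the Rpl24 coding sequence. Gm28037 had 1.21 RPM and was found in 8.54% of nuclei. How reads shared by both models were counted is not given in the sources used here, so the level of Rpl24 is uncertain.

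Shared sequence bears on the other genes too, since ribosomal protein genes have many processed copies in the genome. All 50-base windows of the coding sequence occurred in another annotated transcript for 27 of the 83 genes, and over 50% of the windows did for 67. Rpl39l and Rpl3l shared none. Among the 77 genes that are not paralogs, the median level was 15.8 RPM per kb for the 11 with at most 50% of windows shared, 7.56 for the 39 between 50% and all, and 8.93 for the 27 wholly shared. The ranges of these 3 groups overlapped, and whether reads were lost to copies was not tested. The 7 pseudogene rows of the table together held 241 reads, 0.508 RPM. Levels of other rows that share coding windows varied widely. Uimc1 holds 73.5% of the Rpl29 windows and had 48.2 RPM, beside 5.31 for Rpl29. BC004004 holds 53.6% of the Rpl21 windows and had 47.1 RPM, beside 30.4 for Rpl21. Gm5148 holds 91.8% of the Rps23 windows and had 0.550 RPM, beside 9.22 for Rps23. Which of these reads came from shared sequence was not tested.

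Paralogs fell into common and rare ones. Rpl22l1 stood at 23.9 RPM beside 34.0 for its partner Rpl22, and at 12.0 against 11.7 per kb of all annotated exons. Both were read in 228 nuclei, and Rpl22l1 had more reads than Rpl22 in 115 nuclei (36.4%). Rps27l, known as a p53-responsive gene, stood at 12.8 RPM beside 14.8 for Rps27, and exceeded it in 101 nuclei (32.0%). Both pairs thus were expressed side by side. Rpl7l1 stood at 6.35 RPM beside 22.4 for Rpl7 and exceeded it in 38 nuclei. Rpl3l, known from muscle, stood at 1.29 RPM beside 67.4 for Rpl3. Rpl39l, known from testis, stood at 0.487 RPM beside 6.97 for Rpl39 and was read in 8 nuclei. Rpl10l, also known from testis, had a read in 1 nucleus, against 37.0 RPM for Rpl10. Over the 316 nuclei the paralog and its partner had a Spearman rho of 0.25 for Rpl22l1 and 0.34 for Rps27l, and between -0.05 and 0.10 for the other 4 pairs.

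The shares of the large and the small subunit varied together from nucleus to nucleus. These shares, which have no gene in common, had a Spearman rho of 0.88 and a Pearson r of 0.73 over 316 nuclei, and r was 0.92 without the 2 nuclei farthest from the median large-subunit share. Within blocks rho was 0.88, 0.87, 0.85 and 0.82. Large-subunit reads outnumbered small-subunit reads by a median of 1.78 times, with quartiles of 1.53 and 2.13. The sums run over 51 large-subunit and 32 small-subunit genes. The median level was 8.35 RPM per kb for the 43 standard large-subunit genes outside the stalk. For the 31 standard small-subunit genes it was 8.49.

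Single genes followed the rest of the set as well. Each gene was correlated with the share of all other ribosomal protein genes, for the 78 genes read in at least 50% of nuclei, and rho of 0.3 or more was taken as following. That was met by 74 of 78 genes (94.9%) with a median rho of 0.49. Among 10415 other genes, set against the whole ribosomal protein share, 16.5% met it and the median was 0.04. By role it was met by 39 of 42 large-subunit genes (median 0.48), 30 of 31 small-subunit genes (0.50), the 3 stalk genes (0.62) and both paralogs tested (0.40). Short genes in general followed the share, and 62.9% of the 587 other genes spanning at most 5 kb met the same limit, with a median rho of 0.35. Of the ribosomal protein genes with such a span, 60 of 63 did, with a median of 0.50. Of the 15 with a longer span, 14 did, with a median of 0.48.

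The gene closest to the rest was Rplp1, with a rho of 0.77 and values of 0.79, 0.75, 0.86 and 0.69 in the 4 blocks. Rpl4 (0.68), Rpsa (0.66), Rpl19 (0.66) and Rpl3 (0.66) came next. The lowest rho among tested genes was that of Rpl10a (0.23), with Rpl13a (0.26), known also from translational control in inflammation, Rps12 (0.28), Rpl22 (0.30, just under the limit) and Rps3a1 (0.31) above it. Rpl13a overlaps a gene model on the same strand, Gm45713, which holds 97.5% of its coding windows. As for Rpl24, its count is therefore uncertain. Rpl19 and Rpl13 also overlap a gene model on the same strand, Gm11629 and Gm20388. No other row of the count table shares their coding windows, and how reads in these overlaps were counted is not given. The 5 rare genes were not counted, and Rpl7l1 had 0.20, Rpl24 0.02, Rpl10l -0.03, Rpl3l -0.05 and Rpl39l -0.05. Rpl10a was not rare, with a read in 89.9% of nuclei and a median of 14.5 RPM, yet its rho was 0.38, 0.21, 0.05 and 0.08 in the 4 blocks. Across the 83 genes rho was higher where a gene had more reads (Spearman 0.49 between RPM and rho), a relation that depth per gene enters. All 3003 pairs among the 78 genes had a rho above 0, from 0.04 for Rpl10a with Rpl13a to 0.63 for Rplp1 with Rps3. The median pair had 0.31, and 51.6% of pairs reached 0.3, against 1.54% of pairs over all genes tested, whose median was 0.04.

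The share went with depth and with other classes of transcript. Its rho was -0.35 with total reads, -0.32 to -0.45 within blocks, and 0.12 with the number of genes found. It was 0.61 with the mitochondrial share (0.57 to 0.67 within blocks). Pearson r for that relation was 0.11, and 0.52 without the 2 nuclei farthest from the median mitochondrial share. Malat1, a long RNA that stays in the nucleus, had a median of 1662 RPM and a rho of -0.01 with the ribosomal protein share. Chat, the cholinergic enzyme that drove the sort, had a rho of -0.23. Summed markers of glia and of vascular and ependymal cells had rho between -0.08 and 0.11 and medians of at most 0.00433% of reads, although astrocyte markers reached 2.51% in 1 nucleus. Cholinergic markers together had 0.52, catecholaminergic markers 0.31, visceral motor markers 0.27 and somatic motor markers -0.10. The part of any of these in the ribosomal protein share was not tested.

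Genes outside the set were then ranked by their rho with the ribosomal protein share. Of 10415 genes, 1718 had a rho of at least 0.3 (16.5%) and 183 a rho of at most -0.3 (1.76%). All but 1 of the 1718 had a positive rho in each block, and 915 reached 0.3 in each. All 183 were negative in each block, and 34 passed -0.3 in each. When 295 nuclei were thinned to 500000 reads, leaving out 21 shallower ones, 1691 of the 1718 and 167 of the 183 stayed past the limits. With total reads and gene number taken out of the ranks, 1669 and 162 did. Both sets were picked by rho over these same nuclei. Their agreement in blocks and after thinning or depth adjustment follows in part from that choice.

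The 12 genes with the highest rho differ in what they are known to do. Hsp90ab1, a constitutive HSP90 chaperone, led with a rho of 0.88, between 0.85 and 0.90 in every block. It ranged from 0 to 7101 RPM with a median of 716. The lysosomal protease gene Ctsd followed with 0.83, then the chaperones Hsp90aa1 (0.81) and Hspa8 (0.81) and the elongation factor Eef1a1 (0.80). Cox4i1 (0.80) and Cox6a1 (0.79), subunits of cytochrome c oxidase, came next. Psap (0.78), a precursor of lysosomal activator proteins, Fth1 (0.77), the ferritin heavy chain, Ctsb (0.76), the glycolytic enzyme Pkm (0.76) and Uchl1 (0.76), a neuronal deubiquitinase, closed the leading 12. In all, 41 genes outside the set had a rho of at least 0.7 with the ribosomal protein share.

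At the other end stood genes of long genomic span. Magi2, a synaptic scaffold, had the lowest rho at -0.58, followed by Nrg3 (-0.56), a neuregulin, and Cntnap2 (-0.53), a neurexin family member. Xkr4 (-0.53), Fam155a (-0.53), Fgf14 (-0.52), Lingo2 (-0.51), Ctnna2 (-0.50), Frmd4a (-0.50), Dock3 (-0.49) and Nlgn1 (-0.49) were also among the lowest 12. Each of these genes spans more than 300 kb. They were also abundant: Cntnap2 had a median of 5858 RPM and Nrg3 of 2642, beside 78.3 for Rpl4. Genes longer than 100 kb held 52.6% of all reads, and shares of one total trade against each other. The part of this in the negative rho of long genes was not tested.

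Listed genes of translation followed the ribosomal protein share in part. Here and in the lists below, only genes read in at least 50% of nuclei were tested. Of all 10415 other genes so read 16.5% reached 0.3, and of the 587 spanning at most 5 kb 62.9% did. Of 10 genes listed with the elongation factors 8 reached 0.3, with a median rho of 0.48. They were led by Eef1a1 (0.80) and Eef2 (0.71), which moves the ribosome along the messenger. The list also holds Tpt1 (0.57), Eef1e1 (0.39) and the kinase gene Eef2k (-0.03), which do not encode elongation factors. Of 30 initiation factor genes 19 did (median 0.42), led by Eif1 (0.70) and Eif3c (0.60). A list of 21 genes known for TOP messengers or ribosome association had 14 (median 0.41), but it shares 6 genes with the elongation and 4 with the initiation factors. Of the 11 genes it shares with neither of those lists, 8 reached 0.3, with the same median of 0.41. Npm1, among these 8, is also counted below with the ribosome assembly genes. In it Fau, whose product yields the small-subunit protein eS30, had 0.62 and Rack1, which sits on the small subunit, 0.41. Both genes encode or bind ribosomal parts but fall outside the naming rule, at 22.6 and 41.8 RPM. Of 35 ribosome assembly genes 6 reached 0.3 (median 0.17), a share near the 16.5% of all other genes. Their highest values were those of Rrp1 (0.64), Ncl (0.62) and Npm1 (0.45). Of 17 listed snoRNA host genes 6 were tested. None of these reached 0.3 (median 0.02), among them Gas5 (0.04), itself a TOP transcript.

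Lists of mitochondrial and housekeeping genes are given for comparison. Of 71 nuclear-encoded oxidative phosphorylation genes 64 reached 0.3 (median 0.51), led by Cox6a1 (0.79) and Ndufa13 (0.70), and so did the 7 mitochondrially encoded genes tested (median 0.57). Proteasome genes did in 26 of 35 cases (median 0.43), led by Psmb6 (0.69). Mitochondrial ribosomal protein genes, which serve the separate ribosome of that organelle, did in 25 of 69 (median 0.26), led by Mrps12 (0.53). For the ribosomal protein genes themselves, each against the rest, the median was 0.49. A list of 39 short, abundant cytosolic messengers had a median of 0.66 and 37 genes past 0.3. Of 22 listed stress and immediate early genes 7 were tested. Of these, 5 reached 0.3 (median 0.37), with Jund at 0.46 and Hspb1 at 0.42.

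Other lists had negative or mixed values. Of 29 long neuronal genes none reached 0.3 and 12 were at -0.3 or below (median -0.28). Among 13 nuclear-retained RNAs, Peg13 was at 0.44, Snhg14 at -0.46 and Rian at -0.34, and the other 10 lay between the limits (median -0.08). Of 15 listed motor neuron identity genes 11 were tested. Of these, 7 reached 0.3 (median 0.39), with Ache (0.60), Slc18a3 (0.60) and Prph (0.50) leading, while Chat was at -0.23. Between ribosomal protein genes and the summed share of other lists, the median rho over the 78 genes was 0.47 with initiation factors, 0.46 with oxidative phosphorylation genes, 0.43 with the proteasome and -0.35 with long neuronal genes, and 53 of the 78 were at -0.3 or below with the last.

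**Figure D3:**
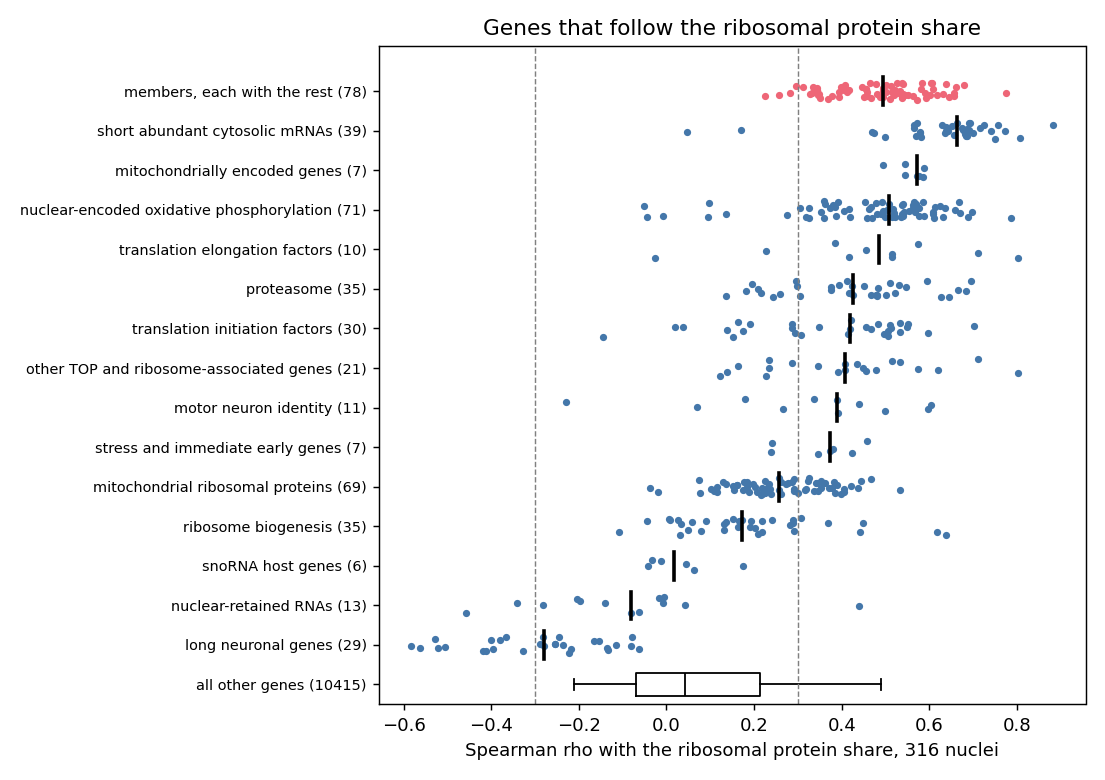
Spearman rho with the ribosomal protein share over 316 nuclei for the 78 ribosomal protein genes (red, each against the other members) and for gene lists (blue, 1 point per gene), with a black bar at each median, a box with whiskers for the 10415 other genes, and dashed lines at 0.3 and -0.3. The red points have a median of 0.49, the short cytosolic messengers 0.66 and the long neuronal genes -0.28.

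Genomic length ran through this order. Over 10271 other genes with a gene model, rho with the ribosomal protein share was lower for genes of longer span, with a Spearman coefficient of -0.64 across genes, which are not independent replicates. It was -0.61, -0.62, -0.65 and -0.73 within the 4 equal groups of genes by expression level. The median rho went from 0.35 for genes under 5 kb and 0.25 at 5 to 10 kb to 0.15 at 10 to 30 kb, 0.02 at 30 to 100 kb, -0.08 at 100 to 300 kb and -0.17 above 300 kb. None of the 593 genes above 300 kb reached 0.3, and 18.9% of them were at -0.3 or below. Ribosomal protein genes span 0.828 to 31.4 kb, with a median of 3.37 kb and 65 of 83 under 5 kb, so they fall at the short end of that range.

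**Figure D4:**
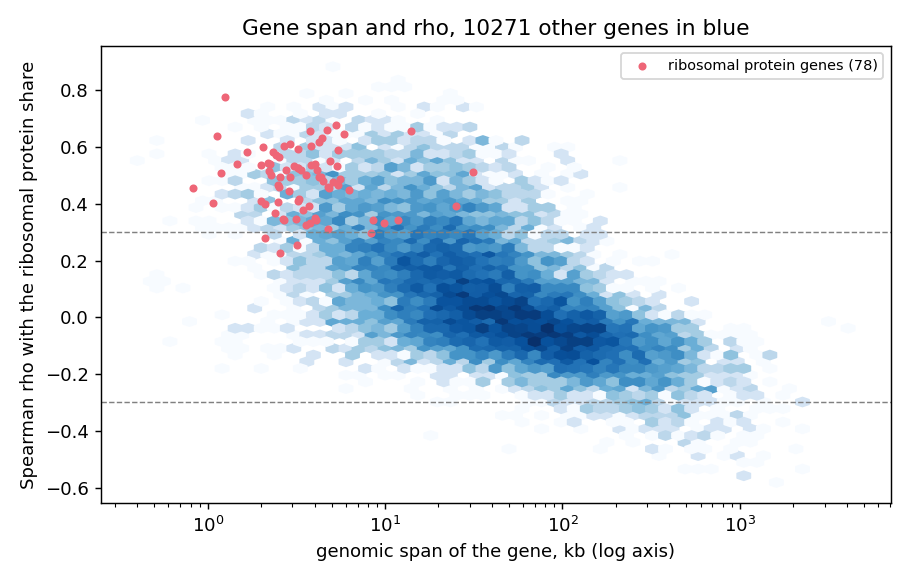
Spearman rho with the ribosomal protein share against the genomic span of the gene (kb, log axis) for 10271 other genes, darker blue where more genes fall, and the 78 ribosomal protein genes in red, each against the rest of the set. Values are lower at longer spans, with medians from 0.35 under 5 kb to -0.17 above 300 kb, and the red points sit at the short end.

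Nuclei were also compared by cluster, with clusters built without ribosomal protein or mitochondrial genes. The first clustering also left out listed genes other than markers, and the second left out all listed genes and markers. The markers that name the first clusters were thus among the genes that clustering could use. In the first clustering, 292 nuclei fell into visceral motor-like clusters and 24 into 1 somatic motor-like cluster, named from mean detection of marker lists. None of these markers was among the 10 leading genes of any cluster. The visceral-like nuclei had a median ribosomal protein share of 0.152% (range 0.0323% to 2.74%) and the somatic-like nuclei 0.111% (0.0380% to 0.277%). Their ranges overlapped. Without nuclei 91, 270 and 304, all visceral-like, the visceral-like median was 0.151% and its highest value 0.577%. In each of the 4 blocks the somatic-like median was the lower, with 5 to 7 such nuclei per block. The somatic-like nuclei had more reads (median 1646060 against 1431010) and a mitochondrial share of 0.105% against 0.0863%, and whether depth bears on the difference was not tested.

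Gene by gene, 68 of 78 ribosomal protein genes had lower RPM in the somatic-like nuclei (87.2%), against 59.3% of the 10415 other genes. The median log2 ratio was -0.41, against -0.12 over all genes. Rps27 stood at 6.56 RPM in somatic-like and 15.6 in visceral-like nuclei, Rpl4 at 41.9 and 82.9, and Rps20 at 7.92 and 18.3. Rpl11, which with Rpl5 and 5S rRNA binds Mdm2, ran the other way at 42.8 and 32.1. The paralog Rpl3l, not among the 78, was also higher, at 6.36 RPM with a read in 4 of 24 somatic-like nuclei (16.7%), against 0.831 RPM and 11.3% of visceral-like nuclei. Nucleus 65 held 167 of its 252 somatic-like reads, and without that nucleus the value was 2.26 RPM.

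A second clustering of the visceral-like nuclei gave 12 clusters that differed in the share by up to 3.21 times between medians. Cluster 9 (18 nuclei, led by Nts, Rgs4 and Fibcd1) had the highest median, 0.260% (0.166% to 1.32%), followed by cluster 5 (29 nuclei, led by Mc4r) at 0.243% and cluster 6 (22 nuclei) at 0.221%. Cluster 11 (14 nuclei) had the lowest, 0.0808% (0.0566% to 0.131%), near clusters 10 (0.0863%) and 12 (0.0891%), whose ranges overlapped with its own. Clusters 9 and 11 did not overlap. Cluster 3, led by the stress gene Atf3, ran from 0.0323% to 2.74% with a median of 0.198%. Without nucleus 91 its highest value was 0.577% and its median 0.197%. Without nucleus 304 cluster 6 had a highest value of 0.378% and a median of 0.220%, and without nucleus 270 cluster 9 had 0.516% and 0.256%. The mitochondrial share went the same way, with medians of 0.129% in cluster 9 and 0.0193% in cluster 11, and so did the oxidative phosphorylation share, at 0.673% and 0.204%. Median depth was 1263380 and 2036920 reads. Of the 1718 genes that follow the share, 1506 were not removed before clustering, so the clusters are not independent of it. No nucleus of block 2, the block with the highest median, lay in cluster 11, and 7 of the 18 in cluster 9 came from it, and cluster 9 had the higher median in blocks 1, 3 and 4.

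**Figure D5:**
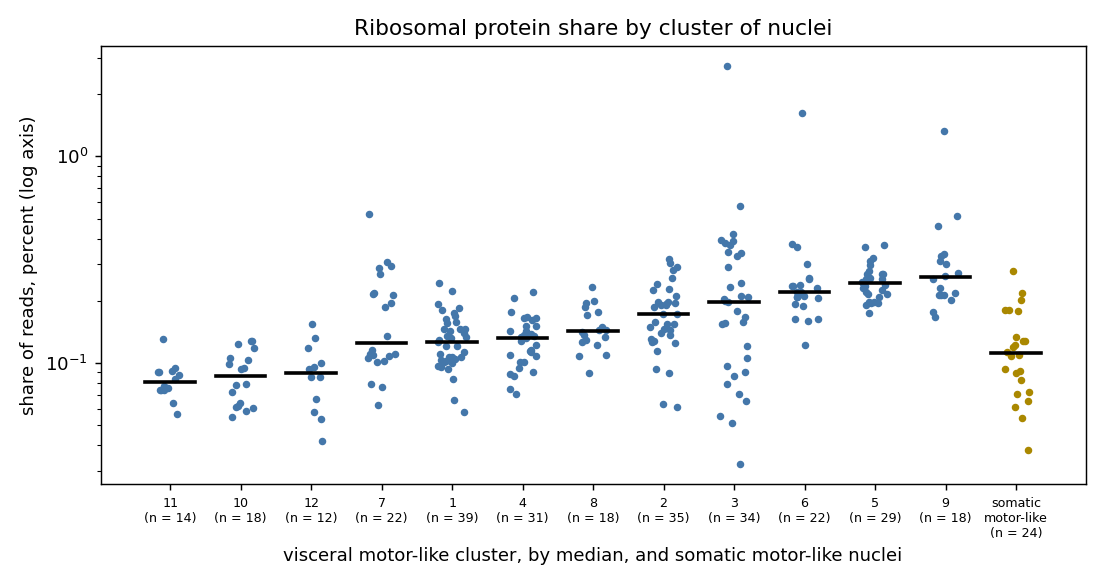
Share of reads on ribosomal protein genes (percent, log axis) for each visceral motor-like cluster of the second clustering, ordered by median, and for the 24 somatic motor-like nuclei, 1 point per nucleus with a black bar at the median. Medians run from 0.0808% in cluster 11 to 0.260% in cluster 9, and most neighbouring clusters overlap.

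Most of the set moved together between those 2 clusters. Of the 78 ribosomal protein genes, 77 had higher RPM in cluster 9 than in cluster 11, and 62 were at least 2-fold higher, against 27.6% of the 10415 other genes. The median log2 ratio was 1.55, against 0.30 over all genes. Rpl15, whose start site carries the longest run shown above, stood at 90.1 RPM in cluster 9 and 9.72 in cluster 11, and Rplp1 at 52.1 and 6.04. Rpl30, an RNA-binding large-subunit protein, was the exception at 21.5 and 23.9, and Rps20 (25.4 and 23.1) and Rpl12 (17.0 and 15.4) lay close. These 3 values of cluster 11 rest on nucleus 229, without which they were 11.8, 14.7 and 9.50 RPM. Rpl22l1 stood at 33.0 and 29.5. Without the nucleus with most of its reads in each cluster, it stood at 27.2 in cluster 9 and 20.6 in cluster 11. As with the share itself, these clusters were picked for its highest and lowest median, so the direction over the set is a description.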

How the data were processed

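The authors deposited 1 table of read counts per gene (whole numbers, not normalised) for 383 nuclei. Per the submitters' processing notes, the build was GRCm38, and the tools, named without roles, include STAR, Picard, bcl2fastq, Seurat version 3 and edgeR. The annotation, counting mode and use of strand are not given in the sources used here, so reads of overlapping, antisense or near-identical genes may be assigned either way.

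Nuclei with at least 1000 genes with a read were kept, with no doublet call, since 1 nucleus was sorted per well. Shares, RPM and Spearman rho were computed with Python 3.11.15, numpy 2.4.6, pandas 2.3.3 and scipy 1.17.1. RPM divides summed reads by all reads of the nuclei in question. Spearman rho was given for genes read in at least 50% of nuclei and called at 0.3 or -0.3, without p-values, because all nuclei are 1 sample. The correlation step was tested on simulated data. Clusters came from scanpy 1.11.5 and leidenalg 0.10.2 (Leiden, resolution 1, 10 neighbours). Gene models were matched by symbol to GENCODE M21 for 28340 of 29779 rows, and start sites to RefSeq. Genes were named by rule: the 5 highest and 5 lowest members by level per kb and by rho, rare members, paralogs with partners, the stalk genes, Rpsa and Rps27a, the 12 highest and 12 lowest other genes by rho, up to 4 genes per list by size of rho, and Malat1, Chat, Eef1a1, Rack1 and Fau. Other genes in the text, among them Rpl6, Rps6, Rpl11, Rpl14, Rpl15, Rps20, Rps24, Rps26, Rpl30, Rpl35, Gas5, Gm28037 and Gm45713, were chosen after their values were seen. Some genes that the rule names are not reported here. The members and lists were chosen with earlier results of these data known. Alternatives covered filters, denominators, thinning, blocks, clustering settings and members with pseudogene rows.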

Additional observations from a re-analysis of the deposited data

Results flagged for a closer look

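The 67 nuclei left out by the filter entered no comparison. Their pooled ribosomal protein share was 1.04% (3990 reads), against 0.155% in the kept nuclei. Per nucleus the order was the other way, with a median share of 0% and an upper quartile of 0.0777%, against a median of 0.146% in the kept nuclei. The 3 nuclei with most ribosomal protein reads held 63.8% of the 3990. Of the 67, 27 had any ribosomal protein read and 7 had a share over 1%. The highest was 12.6%, in a nucleus with 6040 reads, where 760 reads fell on 3 ribosomal protein genes and 323 of these on Rpl19. Without that nucleus the pooled share was 0.856%. The nuclei left out had a median of 2328 reads and 344 genes.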

How the results depend on the processing

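The median share was 0.128% without block 2 of nucleus numbers and 0.171% when mitochondrial genes and the 50 most abundant other genes were taken out of the denominator, and between 0.136% and 0.161% under the other settings run. The number of genes at -0.3 or below was 86 with nuclei of at least 500 genes (329 nuclei) and 281 without block 4. The number at 0.3 or above was 767 when only genes read in at least 90% of nuclei were tested, which also cuts the genes that can be called, and 933 with Pearson r of log2(RPM + 1). Apart from these, under the filters, blocks, thinning, depth adjustment and settings run, members past 0.3 numbered 69 to 75, members in over 50% of nuclei 73 to 78, rho of the 2 subunits was 0.85 to 0.90, the ratio of somatic-like to visceral-like medians 0.69 to 0.78 and the ratio of extreme cluster medians 2.43 to 3.58. Of 1114 values for 71 named genes under up to 16 alternatives, 1079 lay within 0.1 of the rho given, 35 moved further and none changed sign when past a limit. Without the 3 nuclei above 1%, 1886 and 163 genes passed the limits; that setting, a minimum of 100000 reads (306 nuclei) and the values without single nuclei were chosen after seeing the data. The cause of these shifts was not tested. No paired analysis was possible because the labels put all nuclei in 1 group. Depth limits single genes more than the sum: in nuclei with few reads most members have none.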
